A study of Mus musculus with 16 samples.

Results

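Proglumide and lorglumide, 2 cholecystokinin (CCK) receptor antagonists of related structure, were compared by RNA-seq of whole pancreas from obese mice. The comparison held 4 of the 16 pancreata of the series, chosen by their treatment labels. There were 2 mice given proglumide (mice 69 and 72) and 2 given lorglumide (mice 74 and 76). Every mouse was a separate male of the C57BL6/J strain with the Lep(ob/ob) genotype, which lacks functional leptin, and was 12 weeks old. Proglumide was supplied in the water at 0.1 mg/ml and lorglumide at 0.05 mg/ml, each for 6 weeks. The reference was 3 Lep(ob/ob) males of that age (mice 461, 463 and 464) that had control water for 6 weeks and carried the same batch label, RQ15502. Because each compound was given at 1 dose and the doses differed, compound and dose cannot be told apart. The comparison is between the treatments as given. Final weights were 52.1 and 57.3 g with proglumide, 54.1 and 55.7 g with lorglumide, and 49.5, 54.2 and 50.2 g without drug, so the weights of the drug groups overlapped.

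CCK is a peptide hormone of intestinal endocrine cells that drives enzyme secretion and growth of pancreatic acinar cells, and obese mice also make it in islet β cells. It acts through the CCK1 receptor (*Cckar*), which is the main CCK receptor of the mouse acinar cell, and the CCK2 receptor (*Cckbr*), which also binds gastrin. Proglumide is a glutamic acid derivative that blocks both receptors. Lorglumide was derived from proglumide by placing chlorine atoms on the benzoyl ring and lengthening the alkyl chains on the amide, and prefers the CCK1 receptor. The Reg genes encode small secreted lectin-like proteins of acinar cells that are known to be induced in pancreatitis and regeneration.

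Libraries held 9870700 to 15885000 counts over 24411 genes. Levels are given as CPM, read counts scaled to a common library total with the library factors, with mice in the order 461, 463 and 464, then 69 and 72, then 74 and 76. The 50 most counted genes took 49.3% and 62.5% of counts in the proglumide mice, 59.1% and 70.9% in the lorglumide mice and 60.3% to 77.1% in the untreated mice. The libraries were those of pancreas, with 17 digestive protease genes summing to 133320 CPM in mouse 69 and to more in every other mouse. Islet, adipocyte, immune and stromal markers were also present at levels that differed between mice of 1 group, and fewer cells of a type and less RNA per cell cannot be told apart in such tissue. Mouse 69 stood apart from the other drug-treated mice, as described for each gene group.

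No gene passed the test between the 2 drugs. Of 14008 genes tested with edgeR's quasi-likelihood test, 0 (0%) had a Benjamini-Hochberg adjusted p under 0.05. At an unadjusted p under 0.05 there were 487 (3.48%), of which 184 (1.31%) were higher and 303 (2.16%) lower with proglumide. DESeq2 also called 0 genes, with a smallest adjusted p of 0.0542. The 2 proglumide mice both lay above the 2 lorglumide mice for 2594 genes (18.5%) and both below for 2674 (19.1%). The median gene differed by 0.01 on the log2 scale. A difference had to be large to be seen, since the 95% interval of the median gene reached 0.848 log2 units (1.80-fold) to either side. For 5453 genes (38.9%) the whole interval lay within 2-fold. Across 11780 genes with a mean log2 CPM of at least 1 the most alike pair of drug-treated mice was a proglumide and a lorglumide mouse, 72 and 74. Their median absolute difference was 0.195 log2 units, against 0.335 between the 2 proglumide mice and 0.296 between the 2 lorglumide mice.

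**Figure D1:**
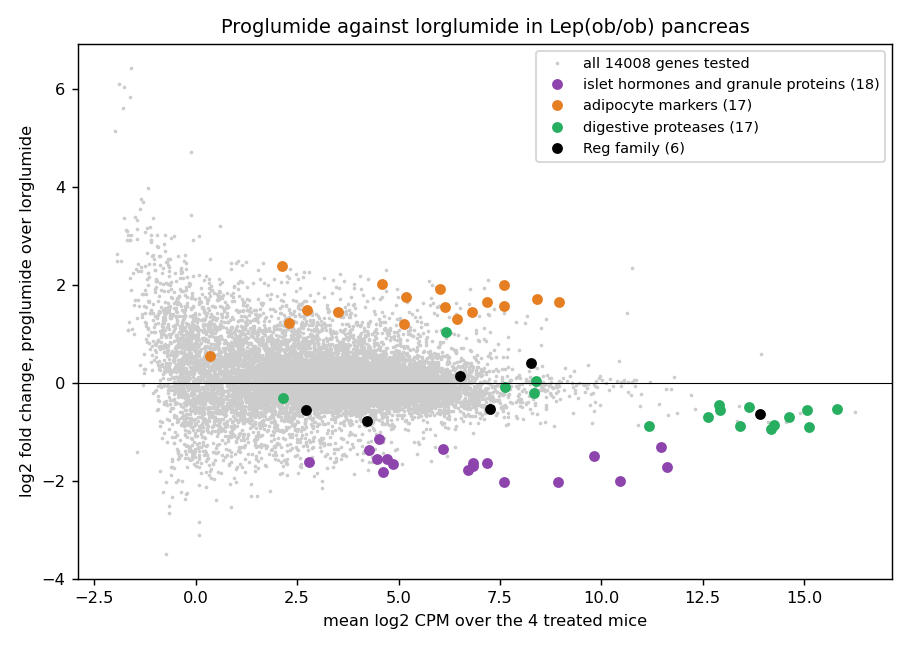
Log2 fold change of proglumide over lorglumide (y axis) against mean log2 CPM over the 4 treated mice (x axis) for all 14008 genes tested, with 4 gene lists in colour. The 18 islet genes all lie below 0, the adipocyte markers all above 0, and the Reg genes on both sides, while no gene passed the test.

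*Reg3a* RNA stood far below the untreated level with both drugs, and no difference between the drugs was detected. *Reg3a* encodes a secreted C-type lectin and stood at 206, 119 and 243 CPM without drug, 6.84 and 3.97 with proglumide and 7.32 and 8.54 with lorglumide. All 4 drug-treated mice lay below all 3 untreated mice, and the 2 drugs' ranges did not overlap, with proglumide lower. Against the untreated mice *Reg3a* fell 34.9-fold with proglumide (log2 fold change -5.12, SE 0.46, edgeR adjusted p = 0.0318). It was the only gene to pass in that comparison (1 lower gene of 14008, 0.00714%, and 0 higher, 0%). With lorglumide it was 23.9-fold lower (log2 fold change -4.58, SE 0.45) but did not pass (edgeR adjusted p = 0.0625), as no gene did in that comparison (0 of 14008, 0%). At an unadjusted p under 0.05 there were 700 genes (5%) for proglumide, 415 higher (2.96%) and 285 lower (2.03%), and 1942 (13.9%) for lorglumide. The interval lay within 2-fold for 5764 genes (41.1%) with proglumide and 5361 (38.3%) with lorglumide. DESeq2 called 10 and 133 genes, and without untreated mouse 464 edgeR called 4 and 916. These contrasts share the 3 untreated mice, and the difference between the drugs themselves was -0.55 with an interval from -1.51 to 0.41. The call for proglumide was lost in each fit without mouse 461, 69, 72, 74 or 76, and over 17 alternatives the comparisons with untreated mice had adjusted p from 3.25e-34 to 0.566 and from 5.06e-27 to 0.803 respectively. The difference between the drugs passed under none of its 17 alternatives.

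*Reg2*, a second secreted member, was the Reg gene with the next smallest p against the untreated mice. It stood at 4245, 5413 and 11750 CPM without drug, 598 and 177 with proglumide and 264 and 325 with lorglumide, and every treated mouse lay below every untreated mouse while the drugs overlapped. The log2 fold change was -4.20 with proglumide (unadjusted p = 0.000960, edgeR adjusted p = 0.768) and -4.60 with lorglumide (unadjusted p = 0.000609, edgeR adjusted p = 0.352). The proglumide value was -5.33 without mouse 69 and -3.56 without mouse 72. The lorglumide value ran from -4.865 without mouse 461 to -4.035 without mouse 464. Between the drugs the log2 fold change was 0.40 with an interval from -1.37 to 2.16, and without mouse 69, where mouse 72 is assumed to vary like the other mice, it was -0.73.

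*Reg3d* was measured at 645, 299.9 and 806 CPM without drug, 104 and 153.1 with proglumide and 157 and 217 with lorglumide, with every treated mouse below every untreated mouse. *Reg3b*, an antibacterial lectin also known as pancreatitis-associated protein, was measured at 692, 271 and 2371 CPM without drug, 191 and 42.4 with proglumide and 57.99 and 152.9 with lorglumide, again below every untreated mouse. *Reg3g*, its close relative, was measured at 105.2, 19.5 and 234 CPM without drug, 23.1 and 12.9 with proglumide and 7.07 and 55.3 with lorglumide. The lorglumide mice spanned a wide range that took in both proglumide mice and the lowest untreated mouse. Between the drugs these 3 genes differed by -0.54, 0.15 and -0.79 log2 units, with intervals that all included 0, and the sign of *Reg3b* and *Reg3g* turned when 1 mouse was left out. *Reg1*, encoding the lithostathine of pancreatic juice, was measured at 21951, 9133 and 28170 CPM without drug, 8915 and 16553 with proglumide and 23048 and 16312 with lorglumide. Its groups overlapped in all 3 comparisons, with a log2 fold change of -0.63 for proglumide and -0.01 for lorglumide against the untreated mice. *Reg4* had 1 read in mouse 463 and 0 in the other mice and was not tested. Over the 6 members tested the median log2 fold change was -2.99 with proglumide and -2.67 with lorglumide against the untreated mice, and -0.54 between the drugs (0.13 without mouse 76), beside -0.02, 0.01 and 0.01 over all genes. Leaving out 1 mouse gave -3.96 (without mouse 69) to -1.96 (without mouse 464) for proglumide against the untreated mice. For lorglumide it gave -4.17 (without mouse 76) to -1.76 (without mouse 464). Against the untreated mice 4 of 6 lay lower without overlap for each drug, where 10.5% of all genes did so for proglumide and 15.4% for lorglumide. Between the drugs 2 of 6 lay lower with proglumide without overlap (19.1% of all genes), and 0 higher (18.5%).

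**Figure D2:**
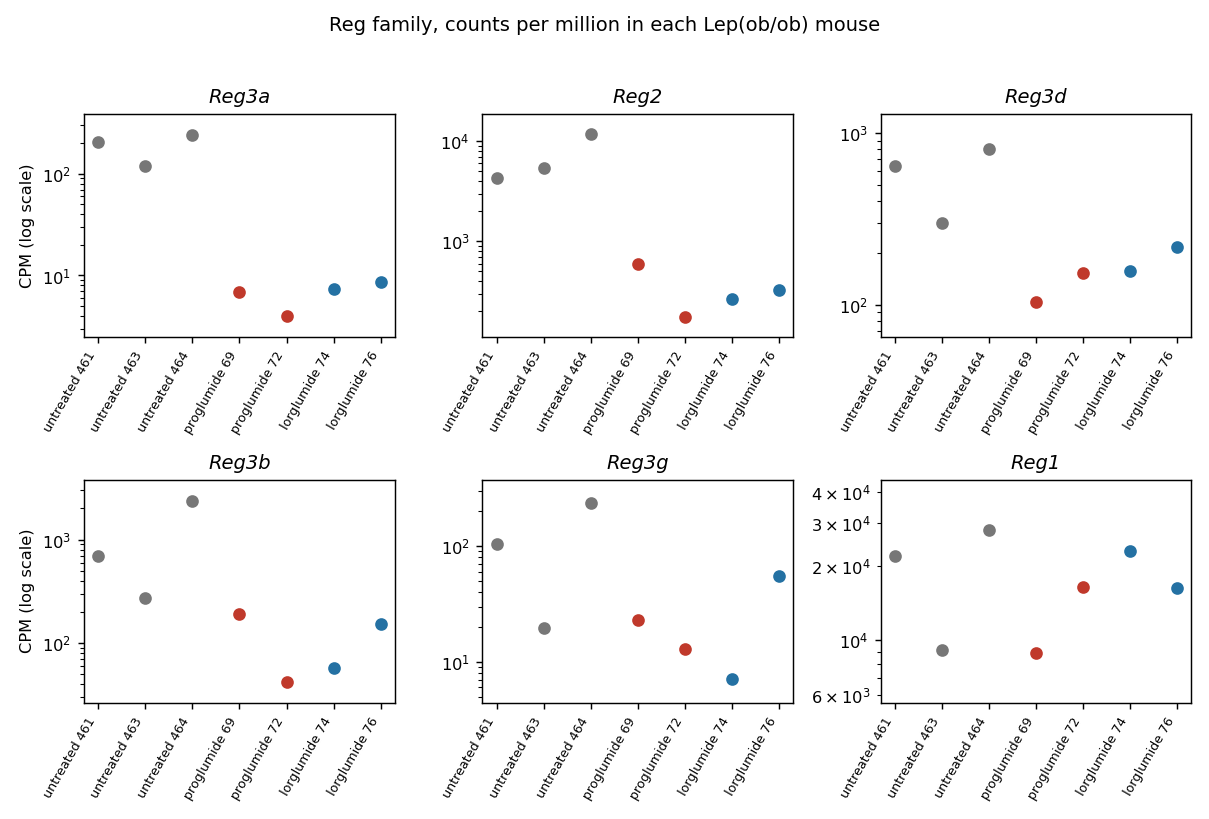
CPM on a log axis of the 6 tested Reg genes, one point per Lep(ob/ob) mouse, with untreated mice in grey, proglumide in red and lorglumide in blue. The 4 treated mice lie below the 3 untreated mice for *Reg3a*, *Reg2*, *Reg3d* and *Reg3b*, and overlap with them for *Reg3g* and *Reg1*.

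The 6 genes lie in 1 cluster on mouse chromosome 6, and the 250 bases before the start of *Reg3a* and *Reg2*, which stood lower with both drugs, are given with those of *Reg1*, whose groups overlapped. All 6 were found in the RefSeq promoter table of GRCm38.p6, and the 3 shown are written 5′ to 3′ on the strand of the gene. The start is that of the RefSeq gene, and GENCODE gene models of *Reg2*, *Reg1* and *Reg3b* begin further upstream. The windows of *Reg2* and *Reg1* lie inside those models, as do the *Reg3b* motif matches counted below. The windows shown are *Reg3a* at chr6:78380459-78380708, plus strand, *Reg2* at chr6:78404905-78405154, plus strand and *Reg1* at chr6:78425733-78425982, plus strand. Capitals mark an E-box CACCTG in *Reg3a* and *Reg2* and an AP-1 motif TGANTCA in *Reg1*.
Reg3a: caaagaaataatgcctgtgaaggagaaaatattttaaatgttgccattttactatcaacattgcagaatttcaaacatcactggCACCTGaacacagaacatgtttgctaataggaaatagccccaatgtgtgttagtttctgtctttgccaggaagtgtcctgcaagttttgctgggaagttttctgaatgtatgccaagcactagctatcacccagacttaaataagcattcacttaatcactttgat
Reg2: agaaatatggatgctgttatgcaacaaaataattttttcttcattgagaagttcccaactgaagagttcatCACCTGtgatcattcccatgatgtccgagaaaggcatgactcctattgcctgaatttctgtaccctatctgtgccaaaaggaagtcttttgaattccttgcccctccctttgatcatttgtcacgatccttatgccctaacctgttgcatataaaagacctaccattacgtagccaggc
Reg1: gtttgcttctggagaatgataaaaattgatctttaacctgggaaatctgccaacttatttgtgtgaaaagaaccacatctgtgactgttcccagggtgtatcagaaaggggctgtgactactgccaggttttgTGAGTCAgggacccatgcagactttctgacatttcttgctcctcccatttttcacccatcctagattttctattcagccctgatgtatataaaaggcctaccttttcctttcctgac
These motifs and the STAT motif TTCNNNGAA were searched on both strands, allowing no mismatch, and they do not overlap one another in these sequences. The E-box was found in 4 of the 6 promoters and in 17.2% of 32851 mouse promoter windows of the same length. It began 166 bases before the start of *Reg3a* and 179 bases before that of *Reg2*, and was absent from the windows of *Reg1* and *Reg3g*. The AP-1 motif was in 1 of 6, 117 bases before *Reg1*, and in 6.75% of all windows. The STAT motif was in 2 of 6, those of *Reg3b* and *Reg3d*, and in 7.02% of all windows. These matches describe the sequence only.

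No receptor or ligand of the pathway passed the test between the drugs. *Cckar* stood at 509.8, 199 and 299.5 CPM without drug, 182 and 260.1 with proglumide and 244 and 369 with lorglumide. The 2 drugs overlapped with each other and with the untreated mice. Its difference between the drugs was -0.47 log2 units with an interval from -1.65 to 0.71. *Cckbr* had 0, 0 and 1 reads in the untreated mice, 2 and 2 with proglumide and 0 and 2 with lorglumide, and was not tested. *Cck* itself was barely detected without drug, at 2, 0 and 0 reads. It had 7 and 18 reads with proglumide and 8 and 18 with lorglumide, nearly the same range. Against the untreated mice the *Cck* log2 fold change, leaving out 1 mouse, ran from 2.84 to 6.59 with proglumide. With lorglumide it ran from 3.44 to 7.02. These values rest on few reads, and *Cck* passed in no comparison. The *Cck* difference between the drugs was -0.43 with an interval from -2.60 to 1.74, and was -1.38 without mouse 72 and 0.37 without mouse 76. *Gast*, which encodes gastrin, had 0, 2 and 3 reads, then 2 and 9, then 4 and 12 reads. The other members carry the acinar signal from receptor to calcium release, among them the G proteins, phospholipase C isoforms and inositol trisphosphate receptors. The list also holds the muscarinic, secretin and VIP receptors that act beside CCK. Of 25 genes of this list 21 were tested, and 0 had an unadjusted p under 0.05 between the drugs. The median difference was 0.04 with a range from -0.47 to 1.94, the highest being *Plcb2*, a phospholipase C isoform, with an interval from -0.14 to 4.02. The *Plcb2* difference was 0.43 without mouse 69 and 3.01 without mouse 76. For 11 of the 21 the interval lay within 2-fold, against 38.9% of all genes.

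For each drug the 5 genes of smallest p in each direction against the untreated mice, without overlap, were set beside the other drug. None but *Reg3a* passed. *Itih4*, an acute-phase plasma protein, stood at 344, 144 and 211 CPM without drug, 40.2 and 43.3 with proglumide and 44.4 and 46.9 with lorglumide. The 4 treated mice lay close together and below the untreated mice. The drugs differed by -0.13 log2 units with an interval from -1.07 to 0.81. Against untreated mice the log2 fold change was -2.48 with proglumide (edgeR adjusted p = 0.768) and -2.35 with lorglumide (edgeR adjusted p = 0.352). *Saa3*, another acute-phase gene, stood at 11.2, 11.7 and 9.43 CPM without drug, 3.64 and 2.85 with proglumide and 0.603 and 1.73 with lorglumide. Here the lorglumide mice lay below the proglumide mice. The log2 fold change between the drugs was 1.49 (interval 0.43 to 2.55, unadjusted p = 0.0116, edgeR adjusted p = 0.930), and was 0.91 without mouse 74 and 2.41 without mouse 76. *Hpcal1*, a neuronal calcium sensor gene, stood at 21.3, 18.5 and 16.9 CPM without drug, 8.63 and 10.2 with proglumide and 11.5 and 13.3 with lorglumide, lower than without drug in all 4 treated mice.

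Among the genes that stood higher than in the untreated mice, *Cacnb2*, a calcium channel subunit, was measured at 3.60, 3.42 and 3.26 CPM without drug, 6.97 and 9.67 with proglumide and 10.7 and 8.63 with lorglumide. The drugs differed by -0.22 log2 units with an interval from -0.89 to 0.45. *Dync2h1*, the motor subunit of dynein in cilia, was measured at 13.8, 11.99 and 17.8 CPM without drug, 37.8 and 35.4 with proglumide and 45.8 and 26.7 with lorglumide. The drugs differed by 0.01 (interval -0.69 to 0.72). *Kcnq1ot1*, a long non-coding RNA transcribed antisense to *Kcnq1*, was measured at 10.9, 13.1 and 20.5 CPM without drug, 85.6 and 55.9 with proglumide and 97.2 and 38.9 with lorglumide, and the drugs overlapped. The strand setting of the counting is not given in the sources used here, so its reads and those of *Kcnq1* may not be told apart. *Bbs12*, a gene of the primary cilium, was measured at 1.38, 1.79 and 1.54 CPM without drug, 4.67 and 4.50 with proglumide and 4.05 and 3.45 with lorglumide. *Gm2663* stood at 4.02, 6.08 and 20.9 CPM without drug, 67.6 and 81.1 with proglumide and 21.0 and 37.7 with lorglumide. In these 5 genes the 4 treated mice lay above the 3 untreated mice. The genes named for lorglumide included *Micu3*, a regulator of mitochondrial calcium uptake, at 4.55, 3.58 and 4.72 CPM without drug, 7.16 and 7.80 with proglumide and 12.7 and 10.1 with lorglumide. *Unc80*, a subunit of the sodium leak channel complex, was measured at 6.67, 5.42 and 10.3 CPM without drug, 7.61 and 14.6 with proglumide and 27.1 and 27.5 with lorglumide. *Mdm1* stood at 8.05, 8.03 and 13.1 CPM without drug, 8.89 and 16.4 with proglumide and 31.3 and 33.0 with lorglumide. Mouse 69 lay within the untreated range in *Unc80* and *Mdm1*. In *Micu3*, *Unc80* and *Mdm1* both lorglumide mice lay above both proglumide mice, by log2 differences of -0.60, -1.30 and -1.35 (proglumide over lorglumide).

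Islet genes stood lower with proglumide than with lorglumide. All 18 genes for islet hormones and secretory granule proteins had a negative log2 fold change, from -2.03 to -1.14 with a median of -1.64, beside 0.01 over all genes. Both proglumide mice lay below both lorglumide mice for 18 of 18, where 19.1% of all genes did so. An unadjusted p under 0.05 was found for 11 of 18, against 2.16% of all genes in that direction. None passed adjustment. The 2 insulin genes are alike in sequence and may share reads. *Ins1*, which encodes insulin, stood at 1078, 789 and 2130 CPM without drug, 311 and 1309 with proglumide and 2231 and 4227 with lorglumide. Mouse 69 was the lowest of the 7 and mouse 76 the highest. The log2 fold change was -1.996 (SE 0.84, interval -3.90 to -0.09, unadjusted p = 0.0424, edgeR adjusted p = 0.930), and was -3.35 without mouse 72 and -1.30 without mouse 69. *Ins2*, the second insulin gene, stood at 2193, 1747 and 4077 CPM without drug, 739 and 3352 with proglumide and 4301 and 9216 with lorglumide, with a log2 fold change of -1.72 (interval -3.69 to 0.24, and -3.16 without mouse 72 and -1.01 without mouse 69). *Iapp*, encoding the amylin that β cells release with insulin, stood at 691, 617 and 2411 CPM without drug, 893 and 3047 with proglumide and 4949 and 4786 with lorglumide (log2 fold change -1.30, and -2.42 without mouse 72 and -0.67 without mouse 69).

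The hormones of the other islet cell types had the same order. *Gcg*, the glucagon gene of α cells, stood at 567, 244.98 and 897 CPM without drug, 229 and 1015 with proglumide and 1307 and 2215 with lorglumide, a log2 fold change of -1.50 (interval -3.42 to 0.42, and -2.91 without mouse 72 and -0.79 without mouse 69). *Sst*, the somatostatin gene of δ cells, stood at 11.8, 11.01 and 25.0 CPM without drug, 2.88 and 32.32 with proglumide and 37.8 and 65.2 with lorglumide (log2 fold change -1.55, and -4.13 without mouse 72 and -0.67 without mouse 69). *Ppy*, encoding pancreatic polypeptide, stood at 12.9, 4.67 and 25.4 CPM without drug, 7.55 and 26.54 with proglumide and 34.2 and 65.8 with lorglumide (log2 fold change -1.56, and -2.70 without mouse 72 and -0.91 without mouse 69). In each of the 3 genes both proglumide mice lay below both lorglumide mice, yet mouse 72 lay above the highest untreated mouse. Among granule proteins, *Scg2*, encoding secretogranin II, stood at 462, 409 and 544 CPM without drug, 111 and 459.5 with proglumide and 649.9 and 1680 with lorglumide. Its log2 fold change was -2.03 (SE 0.75, unadjusted p = 0.0251, edgeR adjusted p = 0.930), and was -3.36 without mouse 72 and -1.19 without mouse 76. *Chga*, encoding chromogranin A, differed by -2.01, and the prohormone convertases *Pcsk1* and *Pcsk2* by -1.83 and -1.78 (unadjusted p = 0.0130 and 0.0167). Without mouse 72 these 3 differences were -3.44, -3.01 and -2.94, and without mouse 69 -1.30, -1.17 and -1.14. *Syp*, encoding synaptophysin of secretory vesicles, had the smallest p of the list and stood at 21.0, 22.4 and 18.0 CPM without drug, 15.5 and 16.05 with proglumide and 24.1 and 45.8 with lorglumide, with a log2 fold change of -1.14 (interval -1.86 to -0.42, unadjusted p = 0.00601, edgeR adjusted p = 0.930).

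The mice of each drug group differed widely in islet RNA. The mean log2 CPM of the 18 genes was 6.42, 5.98 and 6.97 without drug, 4.99 and 6.91 with proglumide and 7.33 and 8.29 with lorglumide. Their summed level was 5817, 4444 and 10948 CPM without drug, 2522 and 10076 with proglumide and 14659 and 24607 with lorglumide. The 2 proglumide mice were thus further apart than mouse 72 was from mouse 74. Against the untreated mice the median log2 fold change was -0.38 with proglumide and 1.31 with lorglumide. The proglumide median was -1.65 without mouse 72 and 0.28 without mouse 69, a reversal of direction. The lorglumide median was 0.71 without mouse 76 and 1.74 without mouse 74. For lorglumide 17 of 18 lay higher without overlap (16.5% of all genes) and 7 had an unadjusted p under 0.05 (6.23% of all genes). Without mouse 69 the median between the drugs was -1.02 with 18 of 18 still negative and 2 at an unadjusted p under 0.05. Without mouse 76 it was -1.07 with 0. Without mouse 72 it was -2.93 and without mouse 74 -2.08. In each of these fits the remaining mouse of the drug is assumed to vary like the other groups. Markers of other cell types moved with these differences, as given below for adipocyte, immune and stromal genes, and their part in the result was not tested.

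Genes of β cell identity and glucose sensing followed the hormones. 19 of 20 had a negative log2 fold change between the drugs, with a median of -1.21. Of these 17 lay lower with proglumide without overlap (19.1% of all genes) and 8 had an unadjusted p under 0.05 (2.16% of all genes). Without mouse 69 the median was -0.70 with 1 at an unadjusted p under 0.05, and without mouse 72 it was -2.05. *Prlr*, the prolactin receptor through which β cells expand in pregnancy, had the smallest p of all 14008 genes between the drugs. It stood at 15.1, 15.1 and 14.1 CPM without drug, 9.08 and 13.2 with proglumide and 28.4 and 39.7 with lorglumide. The lorglumide mice lay above all 5 other mice, and the proglumide mice below all 3 untreated mice. The log2 fold change was -1.61 (SE 0.28, interval -2.25 to -0.98, unadjusted p = 0.000318, edgeR adjusted p = 0.930, range over 17 alternatives 0.0542 to 1). *Neurod1*, a transcription factor of endocrine cells, stood at 3.18, 1.30 and 4.44 CPM without drug, 2.05 and 5.02 with proglumide and 10.5 and 9.78 with lorglumide (log2 fold change -1.53, and -2.28 without mouse 72 and -1.01 without mouse 69). *Mafa*, which drives insulin transcription, stood at 1.27, 0.976 and 1.81 CPM without drug, 0.448 and 0.675 with proglumide and 1.21 and 2.78 with lorglumide (log2 fold change -1.81, and -2.30 without mouse 74 and -1.10 without mouse 76). *G6pc2*, the islet glucose-6-phosphatase, and *Slc30a8*, the zinc transporter of the insulin granule, differed by -1.84 and -1.65 (-1.24 and -1.09 without mouse 69, -2.86 and -2.56 without mouse 72), and the incretin receptor *Glp1r* by -1.16.

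**Figure D3:**
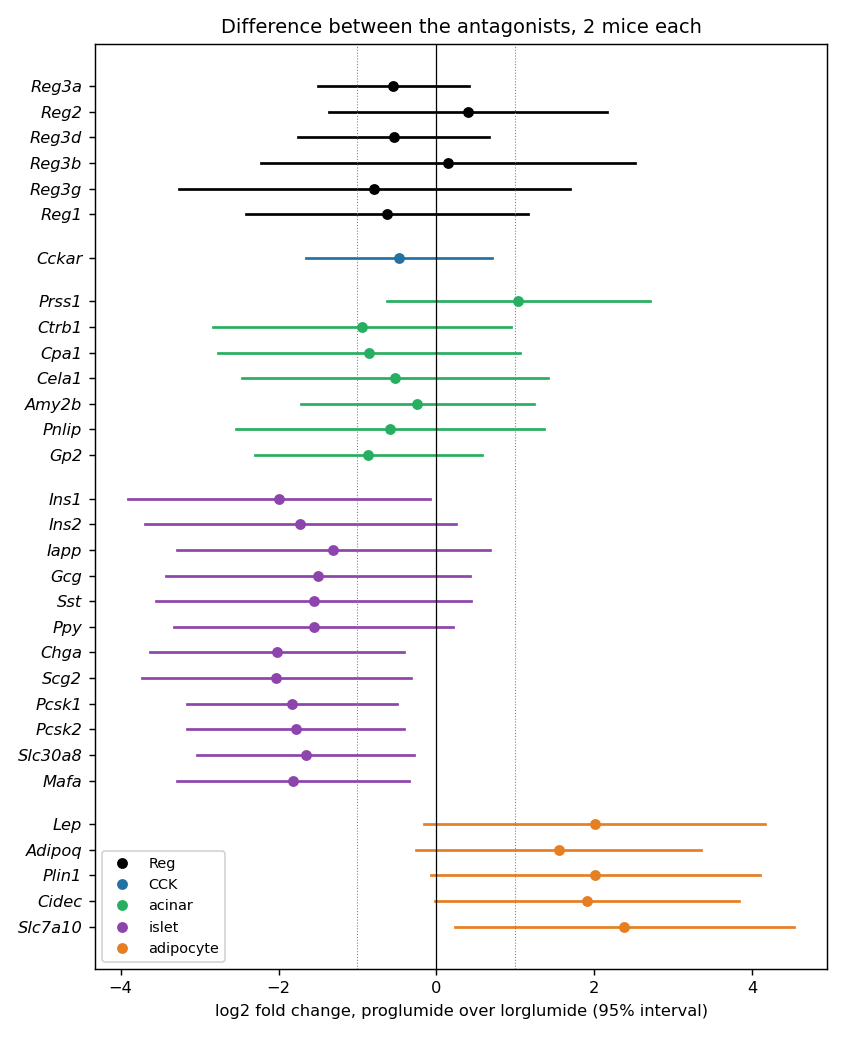
Log2 fold change of proglumide over lorglumide with its 95% interval for named genes of 5 groups (colours), where dotted lines mark 2-fold. The islet genes lie left of 0 and the adipocyte genes right of it, and the intervals of the Reg genes, *Cckar* and the acinar enzymes include 0.

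Between the drugs the 10 genes of smallest p in each direction were taken, leaving out genes whose groups overlapped or whose log2 CPM averaged under 1, and none passed. Of those lower with proglumide, *Mageh1* came with *Prlr* among the smallest p and stood at 5.93, 5.15 and 7.25 CPM without drug, 3.71 and 6.75 with proglumide and 13.2 and 21.7 with lorglumide (log2 fold change -1.74, unadjusted p = 0.00173, edgeR adjusted p = 0.930). *Aldh1a3*, a retinaldehyde dehydrogenase known to be induced in failing β cells, stood at 14.6, 11.1 and 11.2 CPM without drug, 7.48 and 13.7 with proglumide and 25.0 and 47.7 with lorglumide (log2 fold change -1.78, unadjusted p = 0.00174). *Ret*, the receptor for glial-derived neurotrophic factors, stood at 5.51, 6.46 and 7.07 CPM without drug, 2.30 and 3.82 with proglumide and 7.41 and 14.4 with lorglumide (log2 fold change -1.83). In these 3 genes both lorglumide mice lay above every other mouse. *Galr1*, a receptor for galanin, stood at 0.847, 1.74 and 1.36 CPM without drug, 0.831 and 1.57 with proglumide and 3.96 and 6.14 with lorglumide (log2 fold change -2.07). *Prkacb*, a catalytic subunit of protein kinase A, stood at 50.3, 53.1 and 50.4 CPM without drug, 33.4 and 50.3 with proglumide and 80.1 and 94.9 with lorglumide (-1.06). The lysosomal sulfatase gene *Ids*, *Casc4* and *Sez6l* differed by -1.12, -1.17 and -1.05. Counts at *Mir703*, a microRNA locus, were 4.34, 2.55 and 3.72 CPM without drug, 4.03 and 4.80 with proglumide and 24.5 and 10.7 with lorglumide (log2 fold change -1.997, and -2.47 without mouse 76 and -1.29 without mouse 74), with the proglumide mice close to the untreated mice.

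The 10 genes of smallest p that stood higher with proglumide included secreted, stromal and enzyme genes, again with none passing. *Adamtsl5*, a secreted protein that binds microfibrils, stood at 4.34, 7.59 and 4.17 CPM without drug, 7.87 and 4.27 with proglumide and 1.72 and 1.06 with lorglumide (log2 fold change 2.12, SE 0.50, unadjusted p = 0.00257, edgeR adjusted p = 0.930). *Pi16*, a peptidase inhibitor gene of fibroblasts, stood at 9.64, 11.01 and 11.2 CPM without drug, 12.9 and 11.996 with proglumide and 7.50 and 6.24 with lorglumide (log2 fold change 0.86). *Plscr3*, a phospholipid scramblase, stood at 11.01, 11.8 and 10.6 CPM without drug, 11.6 and 13.7 with proglumide and 7.50 and 7.10 with lorglumide (0.80). In these 3 genes it was the lorglumide mice that lay below all untreated mice, while the proglumide mice were within or just above the untreated range. *Col4a5*, a collagen of basement membrane, stood at 15.99, 22.2 and 13.5 CPM without drug, 21.6 and 14.995 with proglumide and 10.3 and 6.91 with lorglumide (log2 fold change 1.08), with the same order. *Aox3*, an aldehyde oxidase that also oxidises drugs, stood at 5.30, 6.02 and 2.45 CPM without drug, 7.74 and 2.10 with proglumide and 0.689 and 1.06 with lorglumide (log2 fold change 2.50, and 1.27 without mouse 69 and 3.17 without mouse 72). *Ccl8*, a chemokine for monocytes, stood at 4.66, 12.5 and 3.81 CPM without drug, 8.63 and 2.47 with proglumide and 0.862 and 1.151 with lorglumide (log2 fold change 2.46, and 1.30 without mouse 69 and 3.12 without mouse 72). *Rspo1*, a potentiator of Wnt signalling, stood at 15.3, 27.1 and 8.07 CPM without drug, 22.4 and 8.85 with proglumide and 4.22 and 4.60 with lorglumide (log2 fold change 1.83, and 1.01 without mouse 69 and 2.37 without mouse 72). *Lars2*, a mitochondrial leucyl-tRNA synthetase, and the locus *Mir6236* differed by 1.43 and 1.43. The ribosomal RNA precursor *Rn45s*, at 19653 and 18904 with proglumide and 10242 and 15492 with lorglumide in CPM, was lower in both lorglumide mice too, and its part in these 2 differences was not tested. *Saa3* is given above.

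**Figure D4:**
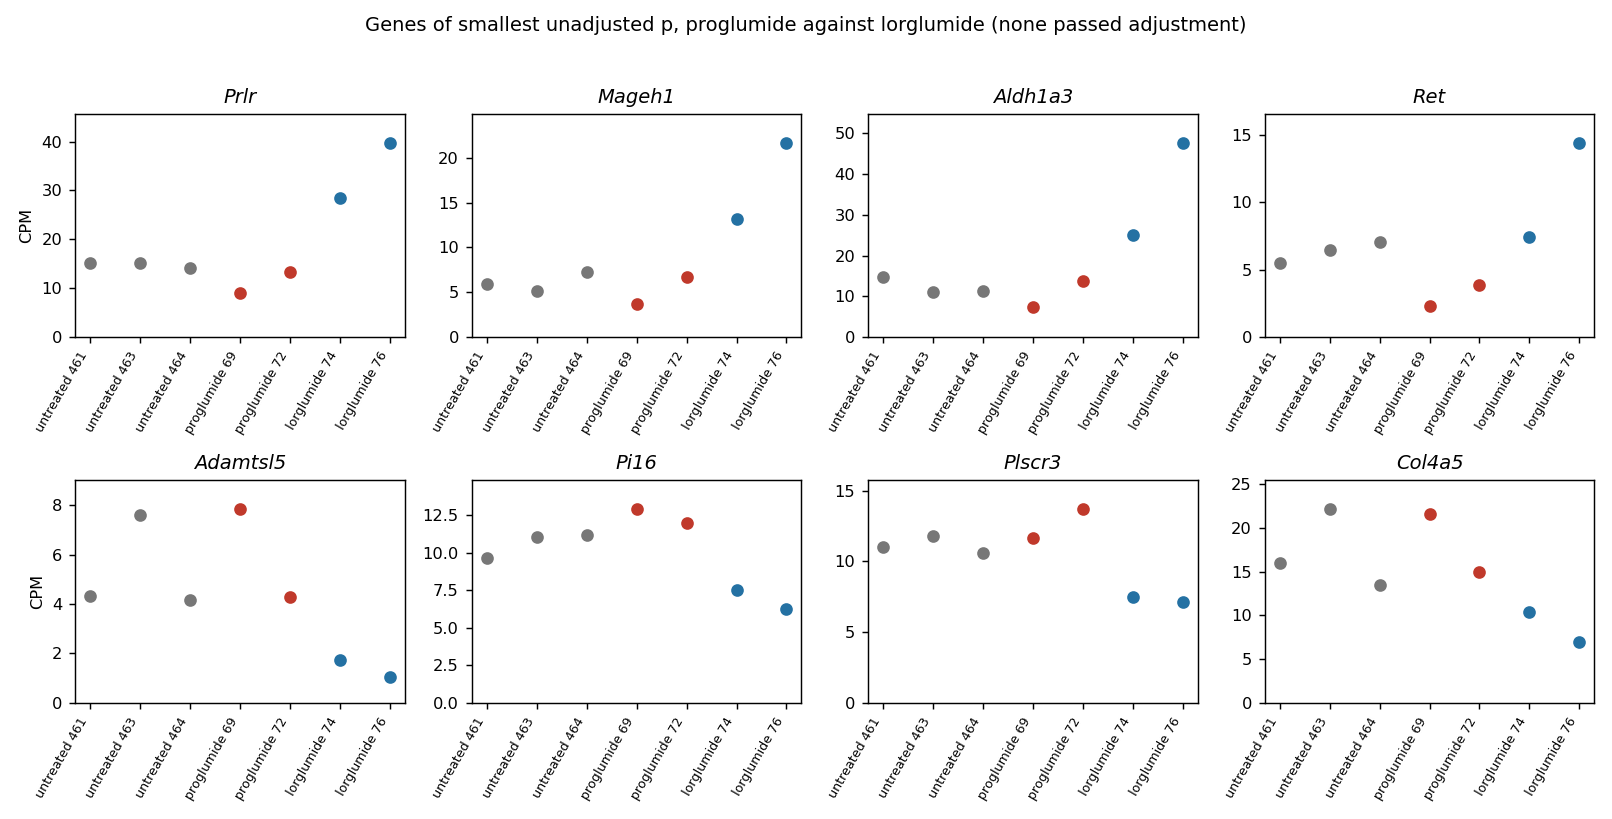
CPM in each Lep(ob/ob) mouse (untreated grey, proglumide red, lorglumide blue) for 4 genes lower and 4 genes higher with proglumide, from those of smallest unadjusted p. In the upper row the lorglumide mice lie above the 5 other mice, and in the lower row they lie below them.

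Adipocyte genes stood higher with proglumide, opposite to the islet genes, and were highest in mouse 69 among the treated mice. All 17 tested markers had a positive log2 fold change between the drugs, with a median of 1.58 and a range from 0.54 to 2.38. Of these 16 lay higher with proglumide without overlap, where 18.5% of all genes did so. *Lep*, the leptin gene, stood at 182, 665 and 110.0 CPM without drug, 715 and 175 with proglumide and 146 and 75.1 with lorglumide. *Plin1*, which coats the lipid droplet, stood at 48.9, 144 and 20.5 CPM without drug, 90.1 and 20.8 with proglumide and 17.1 and 10.3 with lorglumide. Mouse 69 was the highest of the 4 treated mice in both genes, while mouse 72 lay nearer to mouse 74 than to mouse 69. *Slc7a10*, an amino acid transporter of white adipocytes, was the 1 marker of 17 with an unadjusted p under 0.05 (1.31% of all genes in that direction). It stood at 8.15, 22.9 and 3.08 CPM without drug, 16.5 and 5.02 with proglumide and 2.84 and 1.25 with lorglumide. Its log2 fold change was 2.38 (unadjusted p = 0.0336, edgeR adjusted p = 0.930), and was 1.29 without mouse 69 and 3.099 without mouse 74. The count of markers higher at an unadjusted p under 0.05 depended on the fit. It was 15 of 17 without untreated mouse 463, 11 without untreated mouse 464 and 0 without untreated mouse 461. It was 9 with DESeq2 and 15 when only the compared groups were fitted. The mean log2 CPM of the list was 5.92, 7.46 and 4.85 without drug, 6.89 and 5.18 with proglumide and 4.86 and 4.51 with lorglumide. Its summed level was 2721, 8186 and 1357 CPM without drug, 5658 and 1585 with proglumide and 1328 and 954 with lorglumide. Without mouse 69 the median between the drugs was 0.48. The untreated mice spanned a wider range than either drug group. The median was -0.24 for proglumide and -1.77 for lorglumide against them. The proglumide median was -1.385 without mouse 69 and 0.71 without untreated mouse 463, a reversal of direction. The lorglumide median was -2.19 without untreated mouse 464 and -0.91 without untreated mouse 463. For lorglumide 10 markers had an unadjusted p under 0.05, where 7.63% of all genes did so in that direction.

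Fatty acid synthesis genes had the same order in the mice. Their median difference between the drugs was 0.59 over 18 genes, 12 of which lay higher with proglumide without overlap (18.5% of all genes did). The median was 0.28 without mouse 69 and 0.89 without mouse 72. *Fasn*, fatty acid synthase, stood at 334, 809.6 and 81.3 CPM without drug, 565 and 137 with proglumide and 102 and 60.5 with lorglumide. *Scd1*, the desaturase that makes oleate, stood at 2803, 8956 and 1040 CPM without drug, 7977 and 1512 with proglumide and 1259 and 603 with lorglumide. Mouse 69 stood well above the other treated mice in both. Genes of fatty acid oxidation had a median of 0.19 over 21, which was -0.05 without mouse 69, a reversal of direction, and 0 had an unadjusted p under 0.05.

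**Figure D5:**
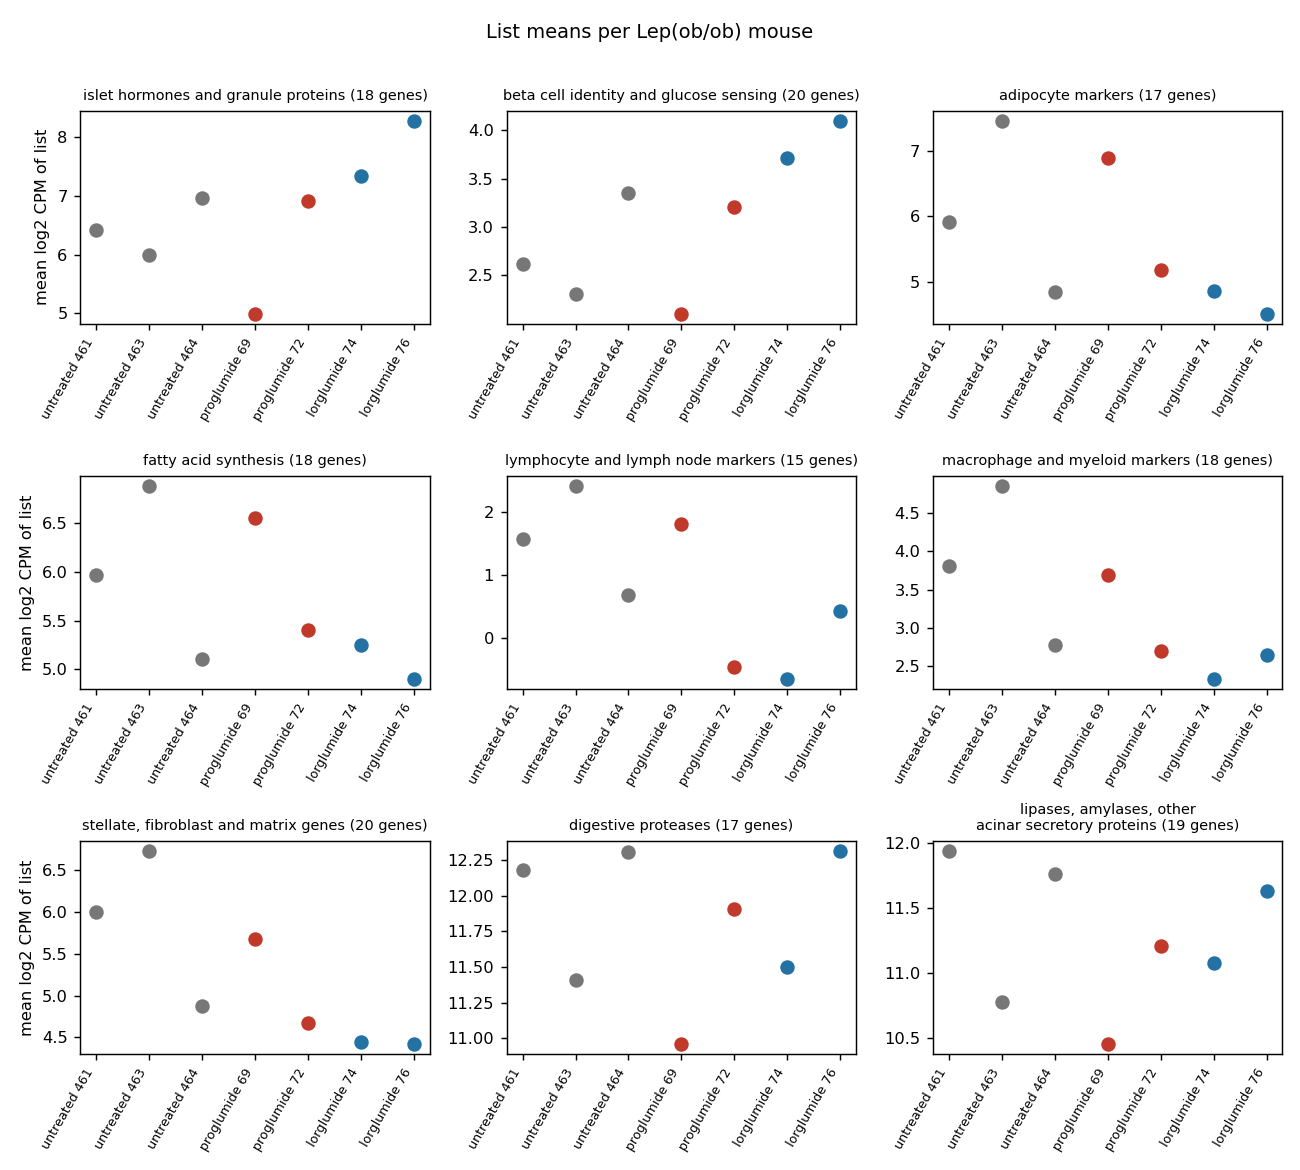
Mean log2 CPM per Lep(ob/ob) mouse of 9 gene lists (untreated grey, proglumide red, lorglumide blue), with a separate y axis for each list. Mouse 69 has the lowest islet mean and the highest adipocyte mean of the 4 treated mice, and mouse 72 lies nearer to the lorglumide mice than to mouse 69 in the adipocyte, fatty acid synthesis, lymphocyte and matrix lists.

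The matrix, lymphocyte and macrophage list means were also highest in mouse 69 among the treated mice. Of 20 matrix and fibroblast genes 15 lay higher with proglumide without overlap (18.5% of all genes), with a median of 0.86, and 0.34 without mouse 69. *Pdgfra*, a receptor for platelet-derived growth factor on fibroblasts, stood at 26.3, 29.7 and 18.5 CPM without drug, 23.5 and 17.7 with proglumide and 14.0 and 12.9 with lorglumide. *Col4a1*, a basement membrane collagen, stood at 310.2, 652 and 113 CPM without drug, 314 and 116 with proglumide and 93.7 and 73.2 with lorglumide. Both lorglumide mice lay below all untreated mice in each gene. Against the untreated mice the list had a median of -0.80 with proglumide and -1.72 with lorglumide. The proglumide median was -1.465 without mouse 69 and -0.26 without untreated mouse 463. The lorglumide median ran from -2.06 without untreated mouse 464 to -1.23 without untreated mouse 463. For lorglumide 15 of 20 had an unadjusted p under 0.05 (7.63% of all genes) and 17 lay lower without overlap (15.4%), and none passed adjustment. Of the lorglumide fits that left out 1 mouse, that without untreated mouse 464 called the most genes, 916, against 0 without untreated mouse 461. Mouse 464 was the untreated mouse nearest to mice 74 and 76, with median absolute differences of 0.259 and 0.233 log2 units. Those differences were 0.478 and 0.401 for mouse 461 and 0.572 and 0.543 for mouse 463. Without untreated mouse 464, edgeR called 14 of 20 matrix genes lower with lorglumide, and 11 of 18 macrophage and 5 of 7 MHC class II genes, where 3.32% of all genes were called lower. In that fit 7 of 20 genes of β cell identity were called higher (3.24% of all genes), and 0 of 12 endothelial markers were called in either direction. Of the islet hormone and granule genes 1 of 18 was called higher, and of the adipocyte markers 2 of 17 were called lower. Lymphocyte markers had a positive fold change for 14 of 15 and a median of 1.29, which was -0.53 without mouse 69, a reversal of direction. *Ccl21a*, a chemokine of lymph nodes, had 0 reads in every mouse. *Cd4*, a T cell co-receptor, was the 1 lymphocyte gene of 15 that lay higher without overlap, a smaller share than the 18.5% of all genes. It stood at 1.59, 1.84 and 0.816 CPM without drug, 1.73 and 0.5998 with proglumide and 0.0862 and 0.192 with lorglumide. Macrophage markers had a median of 0.77 over 18 genes, and 0.14 without mouse 69. *Lyz2*, the lysozyme of macrophages, stood at 267, 662 and 168 CPM without drug, 252 and 108 with proglumide and 67.5 and 110.1 with lorglumide. *Trem2*, a receptor of lipid-laden macrophages, stood at 3.18, 9.93 and 1.36 CPM without drug, 4.54 and 0.8997 with proglumide and 0.603 and 0.959 with lorglumide. The drugs overlapped in both. The 7 MHC class II genes had a median of 0.46, which was -0.10 without mouse 69, and 0 of 7 were apart. The 12 endothelial markers had a median of 0.02, with 6 intervals within 2-fold.

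Acinar enzyme genes had smaller median differences between the drugs. The 17 digestive proteases had a median of -0.56 between the drugs with 15 negative. The lipases, amylases and other acinar secretory proteins had a median of -0.49 with 19 of 19 negative. In both lists 0 had an unadjusted p under 0.05. Of the 17 proteases 0 lay lower with proglumide without overlap (19.1% of all genes) and 1 lay higher (18.5%). Of the 19 lipase, amylase and other secretory genes 3 lay lower without overlap and 0 higher. The proteases summed to 544160, 236210 and 416430 CPM without drug, 133320 and 267320 with proglumide and 223150 and 420340 with lorglumide, with mouse 69 lowest of all 7. Without mouse 69 the medians were -0.12 and -0.22, without mouse 76 -0.17 and -0.20, and without mouse 72 -1.14 and -0.99. *Ctrb1*, encoding chymotrypsinogen, stood at 74009, 30593 and 34802 CPM without drug, 10299 and 18074 with proglumide and 17010 and 37430 with lorglumide (log2 fold change -0.94, interval -2.83 to 0.95, and -1.40 without mouse 74 and -0.26 without mouse 76). *Gp2*, the main zymogen granule membrane protein, stood at 5484, 2899 and 4278 CPM without drug, 1179 and 1758 with proglumide and 1818 and 3530 with lorglumide (log2 fold change -0.86). *Prss1*, a trypsinogen gene, ran the other way, at 7.63, 19.1 and 54.0 CPM without drug, 79.8 and 131 with proglumide and 40.1 and 62.6 with lorglumide (log2 fold change 1.04, interval -0.63 to 2.702). Mice 69, 72 and 76 lay above the highest untreated mouse in *Prss1*, and mouse 74 did not. Trypsinogen genes have near-identical copies, and how shared reads were counted is not given in the sources used here. The 10 acinar transcription factors had a median of -0.04 and 5 intervals within 2-fold. Genes of protein folding in the endoplasmic reticulum had a negative difference for 18 of 20, with a median of -0.52. Of these 10 lay lower without overlap (19.1% of all genes). The median was -0.27 without mouse 69 and -0.30 without mouse 76. *Dnajb9*, a co-chaperone induced by unfolded proteins, was the 1 of 20 lower at an unadjusted p under 0.05 (2.16% of all genes), and 0 were so without mouse 461, 69, 74 or 76. It stood at 70.0, 52.999 and 84.2 CPM without drug, 39.3 and 85.8 with proglumide and 108 and 132 with lorglumide (log2 fold change -0.94, and -0.48 without mouse 69). Mouse 69 was the lowest of the 7 in *Dnajb9* too.

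In the remaining lists no gene passed between the drugs. Of 29 xenobiotic genes 21 were tested, with a median of 0.42, and of 0.07 without mouse 69 and 0.68 without mouse 72. Higher levels with proglumide without overlap were seen in 10 of 21 (18.5% of all genes), and lower in 3 (19.1%). Of the 21 genes 2 had an unadjusted p under 0.05 and higher levels with proglumide, where 1.31% of all genes did so, and 0 lower. Without untreated mouse 461, 1 was higher and 1 lower at that p, and without untreated mouse 463, 3 were higher and 2 lower. *Cyp2e1*, a cytochrome P450 of ethanol and small molecules, stood at 12.6, 29.3 and 5.89 CPM without drug, 24.4 and 5.02 with proglumide and 3.62 and 2.97 with lorglumide (log2 fold change 2.16, unadjusted p = 0.0345), and its difference was 0.61 without mouse 69. *Cyp2s1* stood at 5.30, 8.52 and 2.18 CPM without drug, 5.82 and 4.12 with proglumide and 1.21 and 1.82 with lorglumide (log2 fold change 1.72, unadjusted p = 0.0229). The inducible P450 genes *Cyp1a1*, *Cyp2b10* and *Cyp3a11* had at most 8 reads in any mouse and were not tested. In sterol synthesis *Sqle*, squalene epoxidase, stood at 13.1, 9.28 and 11.7 CPM without drug, 6.91 and 9.45 with proglumide and 13.4 and 22.4 with lorglumide (log2 fold change -1.13, unadjusted p = 0.00851). *Mvk*, mevalonate kinase, differed in the other direction by 1.21 (unadjusted p = 0.0248), with a list median of -0.15 (0.09 without mouse 76, a reversal of direction). Of 21 sterol genes 7 lay lower with proglumide without overlap (19.1% of all genes) and 3 higher (18.5%). Of the clock genes *Nr1d1*, encoding the repressor REV-ERBα, stood at 44.3, 39.98 and 40.8 CPM without drug, 27.2 and 38.3 with proglumide and 23.1 and 13.4 with lorglumide (log2 fold change 0.84, unadjusted p = 0.0233). *Cry1*, a repressor of the same loop, stood at 9.21, 7.97 and 8.43 CPM without drug, 8.50 and 8.02 with proglumide and 11.5 and 15.4 with lorglumide (-0.71, unadjusted p = 0.0265). The clock list had a median of 0.22 over 17 genes, and of 0.05 without mouse 76. In the list 6 genes lay higher with proglumide without overlap (18.5% of all genes) and 1 lower (19.1%). The hour at which tissue was taken is not given in the labels.

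Interferon-stimulated genes had a median of 0.15 over 18, and of -0.06 without mouse 69. Of these 11 were positive, and 4 lay higher (18.5% of all genes) and 3 lower (19.1%) without overlap. The 2 with an unadjusted p under 0.05 were both lower with proglumide (2.16% of all genes). Without untreated mouse 461 1 was so, and 0 were with all 16 mice and batch as a covariate. *Rsad2*, the antiviral viperin, differed by -1.14 (unadjusted p = 0.0168) at 5.18 and 6.37 CPM with proglumide and 9.31 and 16.1 CPM with lorglumide, and by -0.69 without mouse 76. *Usp18*, which removes ISG15 from proteins, differed by -1.17 (unadjusted p = 0.0474), and by -0.49 without mouse 76. The immediate early gene *Egr1* stood at 7.41, 10.4 and 3.26 CPM without drug, 4.92 and 6.22 with proglumide and 1.72 and 2.59 with lorglumide (log2 fold change 1.37, unadjusted p = 0.0332). Of the list 17 of 20 genes were positive, with a median of 0.31 and of 0.10 without mouse 69, and 6 lay higher without overlap (18.5% of all genes) and 1 lower (19.1%). At an unadjusted p under 0.05, 2 of the 20 were higher (1.31% of all genes) and 0 lower. Without untreated mouse 461, 0 were higher at that p. Of 17 duct and metaplasia genes the median was -0.33, and -0.09 without mouse 69. *Krt7*, a duct keratin, stood at 12.5, 8.73 and 10.8 CPM without drug, 8.95 and 12.7 with proglumide and 17.1 and 21.9 with lorglumide (log2 fold change -0.84, unadjusted p = 0.0198). The duct keratin *Krt19* overlapped, with a difference of 0.54 (0.11 without mouse 74 and 1.14 without mouse 76). Lists for cell cycle, the amino acid response and antioxidant defence had medians of -0.18, -0.23 and 0.04, and in the 3 lists *Gsta4* alone had an unadjusted p under 0.05 (log2 fold change 0.94), where 3.48% of all genes did so. The 12 tested markers of other tissues had a median of 0.25, with 1 of 12 higher at an unadjusted p under 0.05 (1.31% of all genes), the mesothelial gene *Wt1* (1.66, and 0.41 without mouse 69). The 4 adult globin genes were listed at 0 in every mouse. Genes that had passed for both antagonists pooled or between genotypes in earlier results of these data gave 0 of 13 with an unadjusted p under 0.05 between the drugs. The widest difference among them was that of *Oxtr*, the oxytocin receptor, at 39.4, 120.1 and 14.9 CPM without drug, 87.99 and 18.0 with proglumide and 12.2 and 13.6 with lorglumide (log2 fold change 2.04, and 0.48 without mouse 69). *Serpina7*, thyroxine-binding globulin, stood at 3.18, 5.04 and 9.07 CPM without drug, 3.39 and 22.9 with proglumide and 29.9 and 39.4 with lorglumide (-1.40), and its difference was -0.59 without mouse 69 and -3.32 without mouse 72.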

How the data were processed

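Bulk RNA-seq libraries were made from pulverized pancreas by poly(A) selection with a dUTP strand-marking kit. The authors deposited read counts per gene symbol. Per the submitters' processing notes reads were trimmed with Trim Galore 0.6.7 and cutadapt 3.5 and mapped to mm10 with STAR 2.7.9, and the counter, strand setting and annotation are not given in the sources used here. The deposited normalized table was not used, and 0 per-sample columns were left unmapped.

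The 7 Lep(ob/ob) mice of batch RQ15502 were fitted together in 3 groups (4 residual degrees of freedom) with edgeR 4.0.16 in R 4.3.3, using TMM factors, filterByExpr with a minimum count of 10 (14008 of 24411 genes) and robust quasi-likelihood tests, adjusted by Benjamini-Hochberg over all genes tested. Log2 CPM used a prior count of 2. Intervals are 95% intervals of the log2 fold change. The script was tested on simulated counts.

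The comparison and the 27 gene lists (489 symbols, 460 tested) were chosen with earlier results of these data known. No gene passing between the drugs, the rule named the 10 of smallest p in each direction without overlap and with mean log2 CPM of at least 1, and 5 in each direction against the untreated mice. Up to 4 genes of each list with the smallest p were also eligible. A result for 1 gene is not reported here. Replicates were separate mice, and no pair agreed within sampling noise. The alternatives were DESeq2 1.42.0, RLE factors, other filters, other sets of mice in the fit, another prior count and leaving out each mouse. Promoter sequences were RefSeq's, and no genome sequence was used here.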

Additional observations from a re-analysis of the deposited data

How the results depend on the processing

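Between the drugs 0 genes passed under each of the 18 alternatives run, with a smallest adjusted p of 0.0542 with DESeq2, so the count of 0 says little about stability at 2 mice per drug. For proglumide against the untreated mice, 1 gene passed with the settings reported and 10 with DESeq2. The count was 0 when only the compared groups were fitted, when the WT mice of the batch were added or when all 16 mice were fitted with batch as a covariate. Leaving out 1 mouse gave 0 to 4 genes, the 4 without untreated mouse 464. For lorglumide 0 passed with the settings reported, 133 with DESeq2, 1 with RLE factors and 2 with no low-count filter. Leaving out 1 mouse gave 0 to 916, the 916 without untreated mouse 464. Without both proglumide mouse 69 and untreated mouse 463, an alternative chosen after seeing the data, 4 and 81 genes passed. The cause was not tested.

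Of the named genes, 7 with small or poorly determined differences changed sign. *Reg1* with lorglumide against the untreated mice was 0.00417 with at least 10 counts in every mouse and 0.0148 with the WT mice added. Leaving out 1 mouse gave -0.35 to 0.34 for this value. Between the drugs, leaving out 1 mouse gave -0.44 to 0.00343 for *Cacnb2*, -1.38 to 0.37 for *Cck* and -0.33 to 0.45 for *Dync2h1*. It gave -0.73 to 1.05 for *Reg2*, -1.31 to 1.01 for *Reg3b* and -1.62 to 1.35 for *Reg3g*. Without mice 69 and 463 the difference between the drugs was 8.73e-05 for *Cacnb2*, 0.17 for *Cck*, -0.0368 for *Dync2h1*, -0.73 for *Reg2* and -1.31 for *Reg3b*. Leaving out 1 of the 4 treated mice changed the sign of the median between the drugs for the lists of Reg, CCK, lymphocyte, MHC class II, acinar transcription factor, interferon, cell cycle, sterol, fatty acid oxidation, amino acid response and antioxidant genes and of genes that passed earlier, and of no other list. The islet median ran from -2.93 without mouse 72 to -1.02 without mouse 69. Where a drug was left with 1 mouse, that mouse was assumed to vary like the other groups. No paired analysis was possible because the groups share no replicate numbers. The number of mice limits the differences that can be seen, and *Cck*, *Gast* and *Cckbr* rest on 18 reads or fewer per mouse.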

Other observations

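Mast cell genes, a group chosen after its values were seen, had an order like that of the stromal markers. *Tpsb2*, a tryptase, stood at 4.45, 7.92 and 2.45 CPM without drug, 5.82 and 1.72 with proglumide and 0.259 and 0 with lorglumide. *Cma1*, a chymase, stood at 6.25, 9.28 and 3.90 CPM without drug, 6.46 and 1.87 with proglumide and 0.431 and 1.25 with lorglumide (log2 fold change between the drugs 2.33, interval 0.60 to 4.05, and 1.17 without mouse 69 and 3.25 without mouse 76). *Mcpt4*, another mast cell protease, stood at 7.10, 9.66 and 2.09 CPM without drug, 7.48 and 1.42 with proglumide and 0.776 and 0.863 with lorglumide (log2 fold change 2.44, and 0.79 without mouse 69 and 3.21 without mouse 72). Both lorglumide mice lay below both proglumide mice and below the 3 untreated mice in these 3 genes, and mouse 69 was the highest of the treated mice. None passed adjustment.

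Some abundant non-coding RNAs, also chosen after their values were seen, differed between mice. *Malat1*, a nuclear RNA, stood at 386, 618 and 952 CPM without drug, 3913 and 1644 with proglumide and 1366 and 701 with lorglumide (log2 fold change between the drugs 1.43, interval -0.16 to 3.02, and 0.67 without mouse 69 and 1.98 without mouse 74), with mouse 69 far above the other treated mice. *Neat1* had another order, at 434, 570 and 1486 CPM without drug, 1544 and 1839 with proglumide and 1782 and 710 with lorglumide. There mouse 69 lay below mice 72 and 74, and the drugs overlapped. *Rn45s*, the ribosomal RNA precursor, stood at 37347, 28569 and 27686 CPM without drug, 19653 and 18904 with proglumide and 10242 and 15492 with lorglumide. In CPM both lorglumide mice lay below both proglumide mice, and all treated mice lay below all untreated mice. The library factors behind these CPM ran from 0.669 in mouse 461 to 1.51 in mouse 69. Whether the order against the untreated mice holds without the factors was not tested.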
